A study of Homo sapiens with 12 samples.

Results

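The 7 genes described here encode the 2 plasminogen activators (PLAU and PLAT), the urokinase receptor (PLAUR) and 4 protease inhibitors of the serpin family (SERPINE2, SERPINB2, SERPINB5 and SERPINB8). They were taken by symbol from the 26372 gene symbols in the deposited tables, and all 7 were listed. The members were selected on symbol and role, in a choice made with FPKM values of these same tables known, so every value below is a description and none is tested. The levels are from polyadenylated RNA of HCT116 cells, a human colorectal carcinoma line, with a KDM3A knockout (KO) or wild type (WT). Both genotypes were grown in normal medium (mock), in medium without serum (starved), or in medium to which fetal bovine serum was returned after 24 h without it (refed). The groups were therefore KO mock, KO starved, KO refed, WT mock, WT starved and WT refed, all of the same cell line. KDM3A encodes a demethylase of lysine 9 of histone H3. How the knockout was made, whether it is 1 clone, and how long serum was back before harvest are not given in the sources used here. The labels list 12 samples, 2 for each of the 6 groups, but each group has a single column of values, filed under its replicate 1 and named for the group, so whether it is that replicate alone or both is not known and there is no spread between replicates against which a difference could be set.

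Urokinase (uPA, from PLAU) and tissue-type plasminogen activator (tPA, from PLAT) cut the circulating zymogen plasminogen to plasmin, a protease that dissolves fibrin and degrades matrix. The urokinase receptor uPAR, from PLAUR, holds uPA at the cell surface, where plasmin formation is favoured. Serpins are protease inhibitors that trap their target in an inactive complex, and in colorectal tumours this system is known for its part in invasion. SERPINE2 (protease nexin-1) and SERPINB2 (plasminogen activator inhibitor 2) inhibit the activators, SERPINB8 inhibits the protease furin, and SERPINB5 (maspin) belongs to the family but does not act as a classical inhibitor.

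The windows around the annotated transcription starts are shown for PLAUR and PLAU, which were more than 2-fold higher in refed than in starved cells of both genotypes, and for SERPINB5, which was more than 2-fold higher in KO than in WT starved and refed cells. SERPINB8 reached 2-fold in no comparison of KO with WT, starved with mock or refed with starved cells. Its window is shown because SERPINB8 is the other serpin gene of the SERPINB5 cluster at 1 FPKM or more. They are RefSeq promoter windows of build GRCh38.p14, with 250 bases before and 50 after the start, 5′ to 3′ on the gene's strand. The table matched 6 of the 7 genes (all but PLAT) with 8 windows. They come from chr19:43670120-43670419 on the minus strand for PLAUR, and from the plus strand for SERPINB8 (chr18:63969831-63970130), SERPINB5 (chr18:63476708-63477007) and PLAU (chr10:73910882-73911181, the second of its 2 windows). Capitals mark TGANTCA and GGGCGG, the core of the GC box bound by SP1. TGANTCA is a looser pattern that takes in TGAGTCA, a core that AP-1 factors such as FOS and JUN bind. Both strands were searched, and these 2 motifs do not overlap in the windows shown.
PLAUR: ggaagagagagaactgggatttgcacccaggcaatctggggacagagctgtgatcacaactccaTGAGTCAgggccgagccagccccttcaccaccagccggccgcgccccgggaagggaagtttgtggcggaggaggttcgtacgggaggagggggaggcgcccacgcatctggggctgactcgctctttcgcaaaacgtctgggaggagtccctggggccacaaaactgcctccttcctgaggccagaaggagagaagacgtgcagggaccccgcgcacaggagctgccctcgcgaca
SERPINB8: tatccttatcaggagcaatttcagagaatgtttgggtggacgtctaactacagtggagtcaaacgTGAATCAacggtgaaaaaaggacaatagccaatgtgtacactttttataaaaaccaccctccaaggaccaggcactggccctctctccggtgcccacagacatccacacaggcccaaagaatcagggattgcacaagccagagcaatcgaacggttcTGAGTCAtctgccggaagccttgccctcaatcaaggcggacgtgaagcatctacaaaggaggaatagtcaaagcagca
SERPINB5: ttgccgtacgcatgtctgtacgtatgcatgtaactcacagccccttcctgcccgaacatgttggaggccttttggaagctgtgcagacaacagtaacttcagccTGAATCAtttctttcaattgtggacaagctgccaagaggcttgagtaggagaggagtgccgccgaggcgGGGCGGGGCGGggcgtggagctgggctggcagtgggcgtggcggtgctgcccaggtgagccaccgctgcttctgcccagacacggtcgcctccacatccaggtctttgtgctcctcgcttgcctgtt
PLAU: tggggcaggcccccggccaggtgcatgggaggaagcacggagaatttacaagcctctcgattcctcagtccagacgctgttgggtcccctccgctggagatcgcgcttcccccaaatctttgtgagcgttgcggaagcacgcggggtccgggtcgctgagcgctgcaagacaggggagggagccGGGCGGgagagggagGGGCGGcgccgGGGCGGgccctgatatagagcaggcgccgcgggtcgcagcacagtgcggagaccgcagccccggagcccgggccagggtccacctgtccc
TGANTCA was found once for PLAUR, once for SERPINB5, once for SERPINB2 and 2 times for SERPINB8, and in 7.71% of the 35116 windows of all genes. That share counts any base at the N. In the PLAUR window the match is TGAGTCA and its first base lies 186 bases before the start. In the windows of SERPINB5 and SERPINB2 the match is TGAATCA. In the SERPINB8 window TGAATCA begins 185 bases and TGAGTCA 28 bases before the start. The windows of PLAU and SERPINE2 held no TGANTCA match. The motif GGAATG, a core bound by TEAD factors, was also searched on both strands and was found in 0 of the 8 windows and in 14.0% of all windows. The GC box core GGGCGG or its reverse complement CCGCCC was found in 45.0% of all windows, 3 times in the PLAU window shown and 2 times, overlapping each other, in that of SERPINB5. The other PLAU window held it 0 times and had 5 CpG dinucleotides. The 2 windows of SERPINE2 held the GC box core 1 and 2 times. The windows shown for PLAU, PLAUR, SERPINB5 and SERPINB8 held 28, 18, 16 and 9 CpG dinucleotides, where the median of all windows was 14 (quartiles 4 and 28). A match is letters only and was not compared with binding data.

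Levels are given as FPKM, fragments normalized by the authors to transcript length and library size, so levels of different genes are compared per length. Ratios are log2 of (FPKM + 1), the first group named over the second, and 2-fold or more on that scale is counted as a difference. In all, 13456 features reached 1 FPKM in at least 1 group and were used for such counts. Of the 7 genes, 6 did so, each of them in every group; SERPINB2 did not and is left out of the counts. KDM3A itself was at 3.15, 3.01 and 3.59 FPKM in mock, starved and refed KO cells, against 41.3, 17.8 and 19.8 FPKM in WT. The epithelial markers EPCAM, KRT8, KRT18 and KRT19 were high in all groups, EPCAM at 145 to 203 FPKM. The 3 keratins were higher in KO than in WT. KRT8 was at 2316 to 2776 FPKM in KO and 1002 to 1148 FPKM in WT. KRT18 was at 840 to 1212 FPKM in KO and 365 to 495 FPKM in WT, and KRT19 at 1209 to 1554 and 515 to 886 FPKM. CDX2 was at 7.10 to 9.24 FPKM in KO and 6.51 to 8.60 FPKM in WT. Of 13 colorectal markers, 6, among them VIL1 and CEACAM5, stayed under 1 FPKM in every group. The WT mock values stand apart. Of 17 endothelial markers, 15 were at 1 FPKM or more there and exceeded all the other groups by 2-fold or more. The levels of these 15 summed to 229.7 FPKM there, against at most 9.04 FPKM in another group. They were picked by that rule, so a gap of 2-fold or more follows from the choice. The exceptions were EGFL7, at 44.2 to 84.3 FPKM in all groups, and PLVAP, under 1 FPKM in all. All 17 markers summed to 307 FPKM in WT mock and to 50.5 to 93.3 FPKM in the other groups, where EGFL7 made up most of the sum. Endothelial cells are known to make tPA and uPA, so differences that use WT mock are read beside those of starved and refed cells. In such bulk values fewer cells of a type and less RNA per cell cannot be told apart. The fibroblast list (11 genes, summed 18.8 to 50.9 FPKM, mostly COL1A1), the leukocyte list (8 genes, 5.18 to 33.5 FPKM, mostly CD68) and the keratinocyte list (9 genes, 16.2 to 30.8 FPKM, mostly KRT10) had no such gene in WT mock.

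PLAU, the uPA gene, differed more with serum than with genotype. It was at 32.8, 30.7 and 85.3 FPKM in mock, starved and refed KO cells, against 21.1, 20.5 and 77.3 FPKM in WT. The 2 refed groups were the highest of the 6, and mock and starved cells of a genotype lay close together. KO was higher than WT by log2 0.61 in mock and 0.56 in starved cells, both short of 2-fold. In refed cells the ratio was 0.14, under the median of 0.22 for all features, and it was -0.13 after median-ratio rescaling of the groups. PLAU shares exons with the opposite-strand gene C10orf55, and whether reads were counted by strand is not stated; C10orf55 was at 0.475, 0.453 and 1.22 FPKM in mock, starved and refed KO cells and 0.245, 0.226 and 1.30 FPKM in WT.

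PLAT, the tPA gene, had another pattern. Its level was 8.39 FPKM in KO mock, 33.1 in KO starved and 30.0 in KO refed, against 6.92, 7.56 and 7.59 FPKM in WT. The 2 KO groups that had been without serum stood far above the other 4 groups, which lay between 6.92 and 8.39 FPKM. KO over WT gave log2 0.24 in mock, 1.99 in starved and 1.85 in refed cells, or 1.81 and 1.63 above the median of all features in the last 2 states. Only 63 of 13456 features had a higher ratio in starved cells and 109 in refed cells. The 15 endothelial markers picked as high in WT mock summed to at most 9.04 FPKM outside it, and EGFL7 was at 44.2 to 84.3 FPKM in all groups. The part of these markers in the PLAT values was not tested.

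Among levels per length, the gene ratio of PLAU to PLAT reflected differences in both genes. It was lowest in KO starved and highest in WT refed cells, and KO refed cells lay between WT starved and WT mock cells. PLAU stood at 3.91, 0.928 and 2.84 times PLAT in mock, starved and refed KO cells, and at 3.05, 2.71 and 10.2 times PLAT in WT. In KO starved cells alone was PLAT at a level above that of PLAU.

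**Figure D1:**
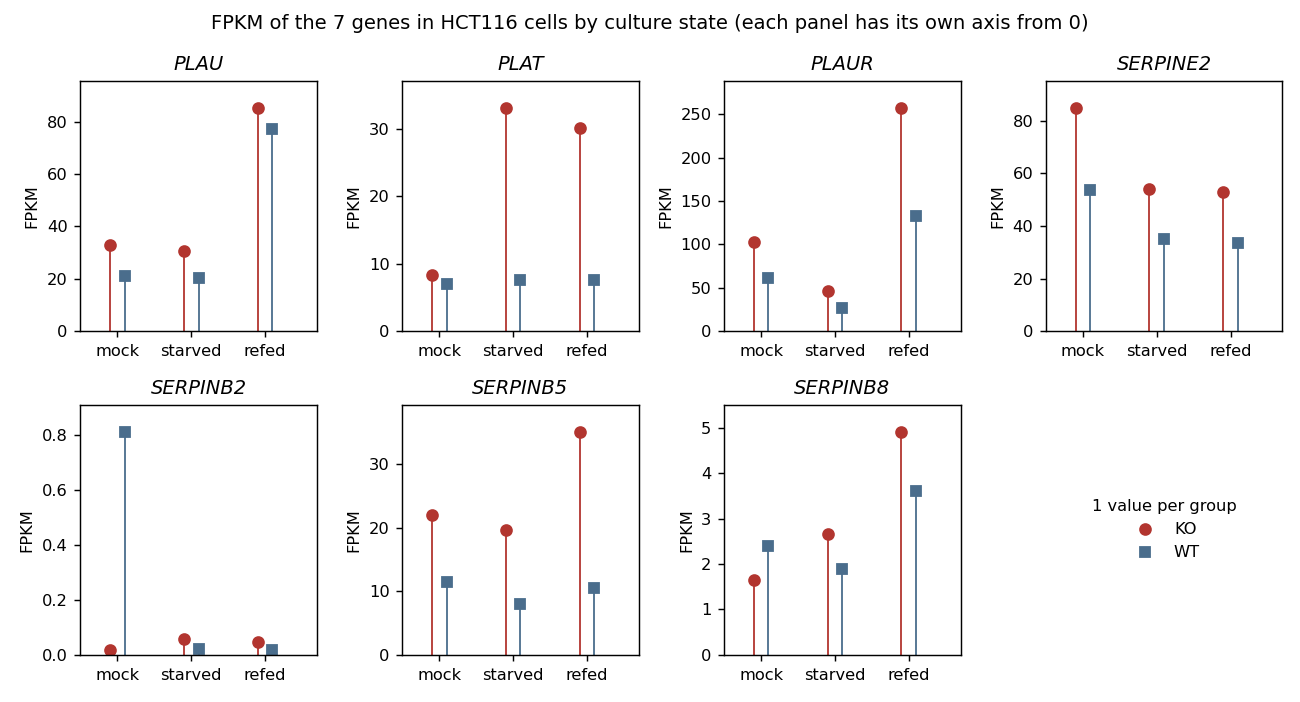
FPKM of the 7 genes (1 panel each, linear axes from 0) in mock, starved and refed HCT116 cells; circles are KO and squares WT, with 1 value per group and no error bar. PLAT reached 33.1 and 30.0 FPKM in KO starved and refed cells and 6.92 to 8.39 FPKM elsewhere, PLAU and PLAUR were highest in refed cells, and SERPINB2 stayed under 1 FPKM.

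PLAUR, the uPA receptor gene, had the widest range of the 6 measured genes. It was at 103, 46.5 and 258 FPKM in mock, starved and refed KO cells, against 60.9, 26.9 and 133 FPKM in WT. In both genotypes it was lowest without serum and highest after serum was returned, and KO was above WT in every state. The ratios of KO to WT were log2 0.75, 0.77 and 0.95 in mock, starved and refed cells, each short of 2-fold on this scale, and 0.66, 0.54 and 0.67 after rescaling. PLAUR was above PLAU in every group, at 3.14, 1.51 and 3.02 times the PLAU level in mock, starved and refed KO cells and 2.88, 1.31 and 1.72 times in WT.

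SERPINE2, an inhibitor of uPA, tPA and thrombin, was at 84.9, 54.0 and 53.0 FPKM in mock, starved and refed KO cells, against 53.5, 35.2 and 33.6 FPKM in WT. Its offset between genotypes was even, with log2 0.66, 0.60 and 0.64 in the 3 states, and 0.57, 0.37 and 0.37 after rescaling. Mock cells were above starved and refed cells in both genotypes, and the last 2 states were nearly level.

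SERPINB5, the maspin gene, had the largest difference between genotypes after PLAT in starved and refed cells, and the largest of the 6 in mock cells. It was at 22.0, 19.6 and 35.1 FPKM in mock, starved and refed KO cells, against 11.4, 8.03 and 10.5 FPKM in WT. The lowest KO value was above the highest WT value, but the states are not replicates and such features were not counted. The log2 ratio was 0.89 in mock, 1.19 in starved and 1.65 in refed cells. After rescaling the starved ratio was 0.98, just under 2-fold, and the refed ratio 1.39. Of the 9 genes of the keratinocyte list, 7 stayed under 1 FPKM in every group. Among them TP63, a defining factor of those cells, was at 0.0390 FPKM or less. KRT14 was at 2.33 to 5.51 FPKM in KO and at most 0.184 FPKM in WT. KRT10 was at 20.4 to 24.1 FPKM in KO and 15.8 to 19.2 FPKM in WT. The part of these genes in the SERPINB5 values was not tested.

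SERPINB8, the furin inhibitor gene, was the lowest of the 6, at 1.65, 2.66 and 4.92 FPKM in mock, starved and refed KO cells and 2.40, 1.89 and 3.62 FPKM in WT. KO was below WT in mock cells (log2 -0.36) and above it in starved (0.34) and refed cells (0.36). The annotation places exons of HMSD over those of SERPINB8 on the same strand, so reads may be split between them. HMSD was at 2.55, 3.26 and 2.34 FPKM in mock, starved and refed KO cells and 1.73, 1.18 and 0.970 FPKM in WT.

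SERPINB2, which encodes plasminogen activator inhibitor 2, was nearly absent. It was at 0.0161, 0.0579 and 0.0477 FPKM in the 3 KO groups, against 0.811, 0.0213 and 0.0167 FPKM in WT mock, starved and refed cells. WT mock, the group with the high endothelial markers, was the only group above 0.1 FPKM; the part of these markers' source in this value was not tested. At such levels no ratio between the other groups is given. Features listed at 0 also differed between genotypes, at 7075 to 7312 in the KO groups and 4300 to 6401 in the WT groups.

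Counted over the comparisons, 0 of the 6 measured genes differed 2-fold between KO and WT in mock cells, where 5.48% of all features did. In starved cells 2 of 6 did (PLAT and SERPINB5, both higher in KO), beside 4.04% of all features, 2.59% in the higher direction; after rescaling SERPINB5 was short of 2-fold there, which left 1 of 6. In refed cells the same 2 of 6 did, again higher in KO, beside 4.92% of all features, 3.41% in the higher direction. The median ratio of the 6 genes was log2 0.63, 0.69 and 0.80 in mock, starved and refed cells, beside 0.07, 0.19 and 0.22 for all features. Above 0 were 5 of 6 genes in mock cells, the exception being SERPINB8, and 6 of 6 in starved and refed cells; after rescaling PLAU in refed cells was below 0 as well. The genes were chosen with these values known, so the shares are not evidence about the family.

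**Figure D2:**
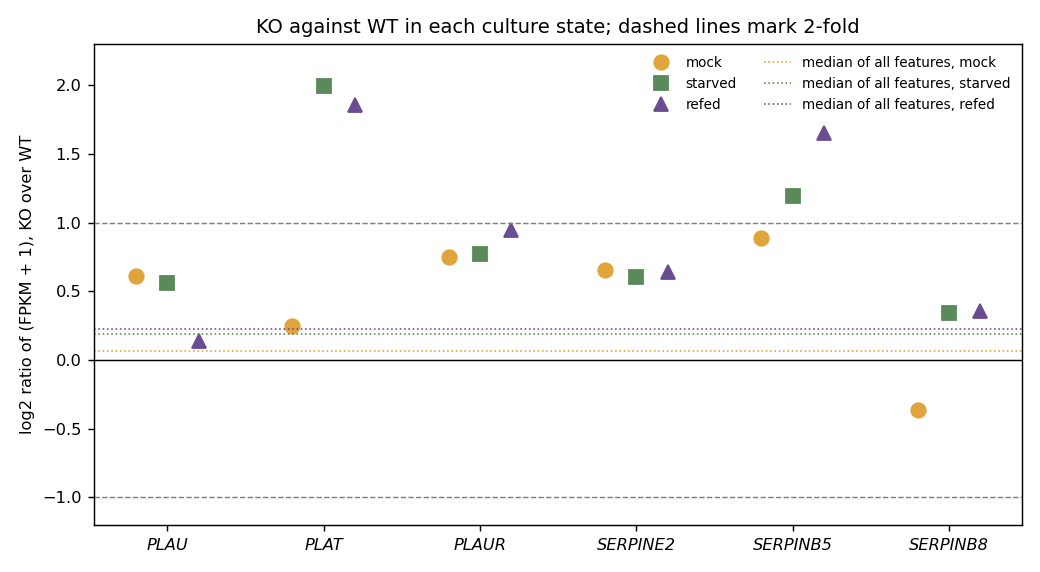
Log2 ratio of (FPKM + 1), KO over WT, of the 6 genes at 1 FPKM or more (horizontal axis) in mock (circles), starved (squares) and refed cells (triangles). Dashed lines mark 2-fold and dotted lines the medians of all 13456 features; PLAT and SERPINB5 lie above 2-fold in starved and refed cells, and PLAUR and SERPINE2 hold nearly the same offset in all 3 states.

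Serum withdrawal was read from starved against mock cells of the same genotype. PLAUR was lower in starved cells of both genotypes. It was at 46.5 FPKM in KO starved against 103 in KO mock (log2 -1.13), and at 26.9 FPKM in WT starved against 60.9 in WT mock (log2 -1.15, and -0.94 after rescaling). The 15 endothelial markers picked as high in WT mock were low in both KO groups, and their part in the WT difference was not tested. PLAT was higher in KO starved than in KO mock cells by log2 1.86, and only 40 of 13456 features had a higher ratio. In WT the PLAT ratio was 0.11. SERPINE2 was lower in starved cells by log2 -0.64 in KO and -0.59 in WT, and SERPINB5 by -0.16 in KO and -0.46 in WT. PLAU was at -0.09 in KO and -0.04 in WT, and the WT ratio was 0.17 after rescaling.

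Past 2-fold in this comparison were 2 of the 6 genes in KO (PLAT higher and PLAUR lower), beside 2.13% of all features, and 1 of 6 in WT (PLAUR, lower), beside 4.94%. The PLAT response in KO exceeded that in WT by log2 1.75. A response at least 2-fold higher in KO than in WT was seen for 2.70% of all features, and 167 features exceeded PLAT. The genotypes' mock values differ in the 15 endothelial markers picked as high in WT mock, and this difference also uses WT mock. In starved cells alone, where those 15 were low in both genotypes, PLAT was at 33.1 FPKM in KO and 7.56 FPKM in WT.

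The return of serum was read from refed against starved cells of the same genotype. PLAUR and PLAU were higher in refed cells of both genotypes. PLAUR was at 258 FPKM in KO refed against 46.5 in KO starved cells (log2 2.45), and at 133 FPKM in WT refed against 26.9 in WT starved cells (2.27). PLAU was at 85.3 FPKM in KO refed against 30.7 in KO starved cells (1.44), and at 77.3 FPKM in WT refed against 20.5 in WT starved cells (1.86). These 2 of 6 genes were past 2-fold in each genotype, beside 2.42% of all features in KO and 2.38% in WT, with 1.98% and 1.69% in the higher direction. SERPINB8 had log2 0.69 in KO and 0.68 in WT, and SERPINB5 0.81 in KO and 0.35 in WT, all short of 2-fold. PLAT and SERPINE2 hardly differed, with -0.14 and -0.03 in KO and 0.01 and -0.07 in WT.

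Both serum comparisons of a genotype use the same starved values. Set against mock cells, the refed levels of PLAU were 2.60 times in KO and 3.66 times in WT, and those of PLAUR 2.50 times in KO and 2.19 times in WT. SERPINB8 was at 2.99 times its mock level in refed KO cells and at 1.51 times in refed WT cells. PLAT in refed KO cells was still 3.58 times its mock level, where WT refed cells were at 1.10 times.

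**Figure D3:**
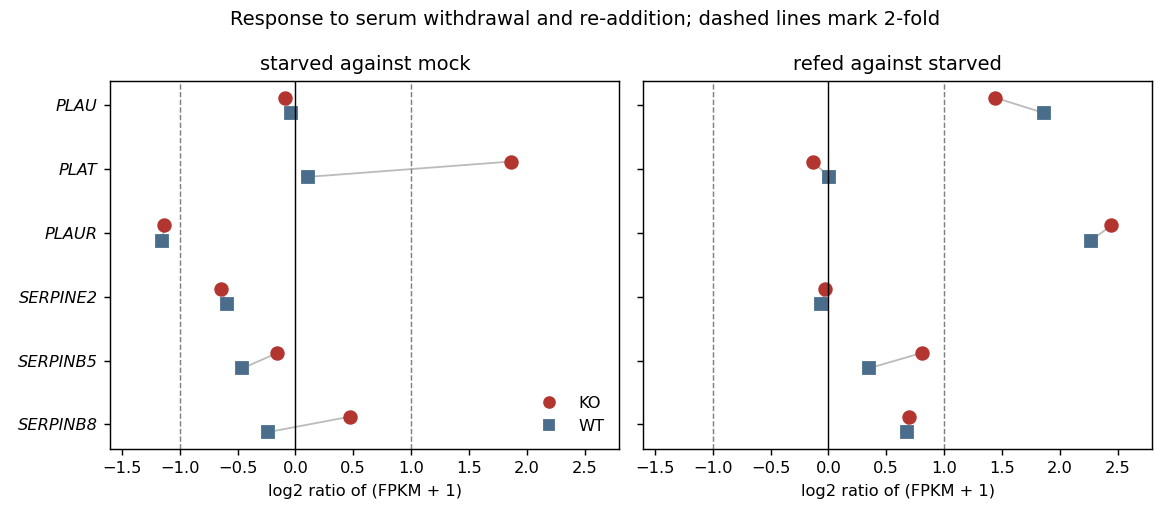
Log2 ratio of (FPKM + 1) for starved against mock (left) and refed against starved cells (right), with KO as circles above WT as squares for each of the 6 genes and dashed lines at 2-fold. PLAT has a ratio of 1.86 in KO and 0.11 in WT on the left, and PLAU and PLAUR lie between 1.44 and 2.45 in both genotypes on the right.

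Among 14 other components of fibrinolysis, 5 were measured. Plasminogen itself (PLG) was at 0.0449 FPKM or less in every group. SERPINA5, the protein C inhibitor, which also inhibits uPA, was at 0.413 to 0.485 FPKM in KO and 8.74 to 10.4 FPKM in WT. It reached 1 FPKM in the WT groups alone. SERPINI1, neuroserpin, an inhibitor of tPA, was at 2.84 to 3.86 FPKM in KO and 2.0 to 4.32 FPKM in WT. F3, tissue factor, was at 16.1 FPKM in KO refed against 6.97 in KO starved cells, and at 23.8 FPKM in WT refed against 6.81 in WT starved cells. F12, coagulation factor XII, lay between 7.84 and 12.7 FPKM in all groups.

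KO against WT, the list had 1 gene past 2-fold in each of mock, starved and refed cells, which was SERPINA5, lower in KO, beside 5.48%, 4.04% and 4.92% of all features. Refed cells were higher than starved cells in 1 (F3) in each genotype, beside 1.98% of all features in KO and 1.69% in WT. Starved against mock had 0 higher and 0 lower in both.

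**Figure D4:**
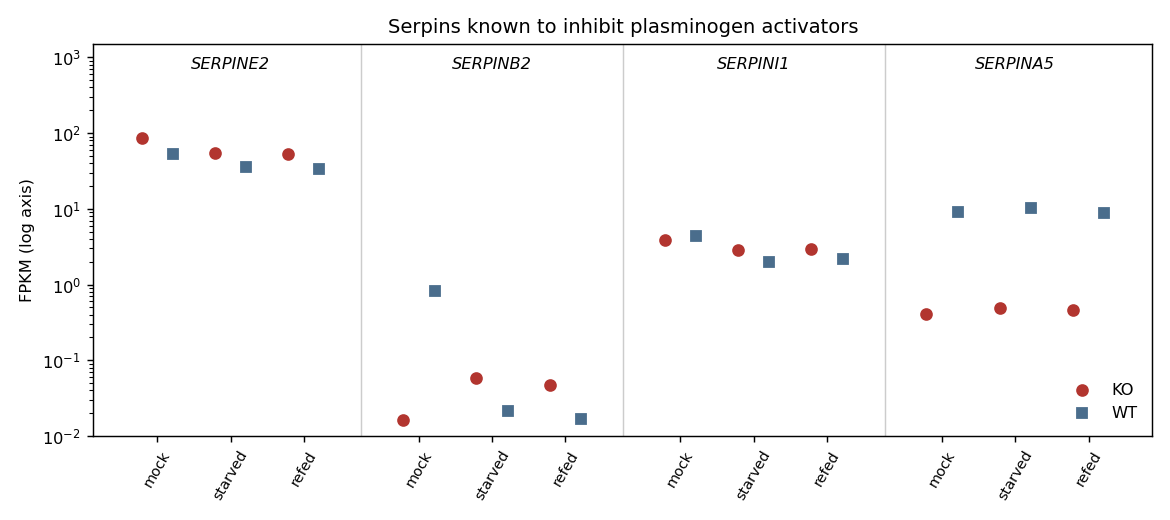
FPKM on a log axis of 4 serpins known to inhibit plasminogen activators in mock, starved and refed cells, with KO as circles left of WT as squares. SERPINA5 is at 0.413 to 0.485 FPKM in KO and 8.74 to 10.4 FPKM in WT, and SERPINE2 is the one that is higher in KO in all 3 states.

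Of 16 plasminogen receptors and uPAR partners, 13 were measured. ANXA2 and S100A10, the subunits of the annexin A2 complex that binds tPA and plasminogen, were abundant. ANXA2 was at 1053, 999 and 990.1 FPKM in mock, starved and refed KO cells, against 886, 549 and 528 FPKM in WT. S100A10 was at 155, 118 and 160.4 FPKM in KO, against 121, 53.0 and 63.9 FPKM in WT. KO was at least 2-fold above WT in S100A10 in starved and refed cells (log2 1.14 and 1.32, and 0.91 in starved cells after rescaling); ANXA2, which has processed pseudogenes, reached 0.86 and 0.91. KO against WT, the list had 0 genes higher and 1 lower (ITGB3) in mock cells, beside 2.27% of all features higher and 3.22% lower. In starved cells 2 were higher and in refed cells 4, with none lower, beside 2.59% and 3.41% of all features higher. After rescaling the higher ones were 0 in starved cells and 1 in refed cells. In refed cells LYPD3, a relative of uPAR, was at 22.9 FPKM in KO and 9.89 FPKM in WT (log2 1.14, and 0.88 after rescaling). MRC2, a collagen receptor that associates with uPAR, was at 14.7, 11.96 and 11.6 FPKM in mock, starved and refed KO cells, against 9.43, 5.43 and 4.57 FPKM in WT, and its ratios of log2 1.01 in starved and 1.18 in refed cells became 0.81 and 0.94 after rescaling. Starved against mock gave 0 higher and 0 lower in KO and 0 higher and 4 lower in WT. Of all features, 1.18% were lower in KO and 3.91% in WT. ITGB3 was among the 4. So was the integrin gene ITGAV, a uPAR partner, at 5.69 FPKM in WT starved and 15.7 FPKM in WT mock cells. Only WT mock brought ITGB3 to 1 FPKM or more (4.89 FPKM), and every other group had 0.0861 FPKM or less. Its lower calls, in KO mock and in WT starved cells, therefore both rest on WT mock. WT mock was the group with high endothelial markers, and their part in these values was not tested. After rescaling the 4 were 2, with S100A10 at log2 -0.96 and ITGB1 at -0.87. Refed against starved gave 1 higher in KO (LYPD3) and 0 in WT, or 1 (LYPD3) after rescaling, and none lower. Of all features, 1.98% were higher in KO and 1.69% in WT.

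Downstream proteases and their inhibitors were measured in 13 of 20. ST14, which encodes matriptase, an activator of pro-uPA, was at 101, 83.7 and 100.6 FPKM in mock, starved and refed KO cells, against 55.7, 48.4 and 45.9 FPKM in WT. KO against WT gave 1 gene higher and 4 lower in mock cells, beside 2.27% of all features higher and 3.22% lower, and 1 higher (TIMP3) in starved and 2 higher (TIMP3 and ST14) in refed cells with none lower, beside 2.59% and 3.41% of all features higher. The refed ratio of ST14 was log2 1.11, and 0.84 after rescaling. The 4 lower genes were MMP1, MMP2, MMP10 and MMP14. MMP1 and MMP2, a collagenase and a gelatinase, were at 84.3 and 43.1 FPKM in WT mock cells and at 0.143 FPKM or less in the other 5 groups. The endothelial markers VWF and CDH5 were likewise at 75.9 and 25.8 FPKM in WT mock cells and at 0.159 FPKM or less in the other groups, and their part in the MMP values was not tested. MMP14, the membrane-type activator of MMP2, was at 9.36 FPKM in KO mock and 25.7 FPKM in WT mock cells. The same 4 were lower in WT starved than in WT mock cells, beside 3.91% of all features lower. MMP1, MMP2 and MMP10 reached 1 FPKM in WT mock alone. KO starved cells had 0 higher and 0 lower, beside 0.951% and 1.18% of all features. Refed against starved had none in either genotype.

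Factors known to act on PLAU transcription were measured in 16 of 17. Refed against starved, 9 were higher in KO and 8 in WT, beside 1.98% of all features in KO and 1.69% in WT, and none was lower. FOSL1, an AP-1 subunit, was at 216 FPKM in KO refed against 25.9 in KO starved cells, and at 203 FPKM in WT refed against 18.6 in WT starved cells. FOS was at 55.7 FPKM in KO refed against 5.17 in KO starved cells, and at 51.2 FPKM in WT refed against 8.17 in WT starved cells. JUN was at 38.1 FPKM in KO refed and 82.6 FPKM in WT refed cells. FOSL2 was at 14.8 FPKM in KO starved and 3.54 FPKM in WT starved cells. KO against WT, FOSL2 and KLF4 were higher in mock and starved cells and KLF4 in refed cells. Of all features, 2.27%, 2.59% and 3.41% were higher in mock, starved and refed cells. EGR1 and ETS2 were lower in starved and EGR1 and JUN in refed cells, beside 1.46% and 1.51% of all features. The mock ratio of FOSL2 was log2 1.01, and 0.92 after rescaling. Starved against mock, none was past 2-fold in KO, and ETS1, FOSL2, KLF4 and JUN were lower in WT, beside 3.91% of all features; after rescaling KLF4 was at log2 -0.85 and JUN at -0.81, which left 2.

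SERPINB5, SERPINB2 and SERPINB8 lie in one cluster of 10 clade B serpin genes on chromosome 18, by gene order in the RefSeq table, with SERPINB5 at one end and SERPINB8 at the other. These end genes were the 2 of the 10 that reached 1 FPKM. The 8 between them, SERPINB2 among them, stayed at 0.811 FPKM or less, and at 0.200 FPKM or less without SERPINB2. SERPINB7 was at 0.184, 0.200 and 0.124 FPKM in mock, starved and refed KO cells, against 0.0254, 0.0139 and 0 FPKM in WT. SERPINB3 and SERPINB4 are near-identical copies, so their values (at most 0.0623 FPKM) are uncertain. VPS4B, the protein-coding neighbour before SERPINB5, was at 14.6 to 15.0 FPKM in KO and 11.0 to 12.7 FPKM in WT, and CDH7, the one after SERPINB8, was at 0.0175 FPKM or less.

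The other clade B serpins that were measured, 3 of 10 listed, were SERPINB1, SERPINB6 and SERPINB9, which lie outside this cluster. KO against WT gave none past 2-fold in any state. SERPINB1, an inhibitor of neutrophil elastase, was at 19.2 FPKM in KO starved against 49.7 in KO mock cells, and at 25.6 FPKM in WT starved against 50.3 in WT mock cells. SERPINB9, the granzyme B inhibitor, was at 3.29 FPKM in KO starved against 7.86 in KO mock cells, and at 4.66 FPKM in WT starved against 11.6 in WT mock cells. Starved cells were lower by 2-fold in 2 of 3 in KO (SERPINB1 and SERPINB9) and 1 of 3 in WT (SERPINB9). Of all features, 1.18% were lower in KO and 3.91% in WT. The SERPINB9 ratios became -0.98 in KO and -0.97 in WT after rescaling. Refed against starved gave none. SERPINB6 lay between 55.7 and 73.9 FPKM.

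**Figure D5:**
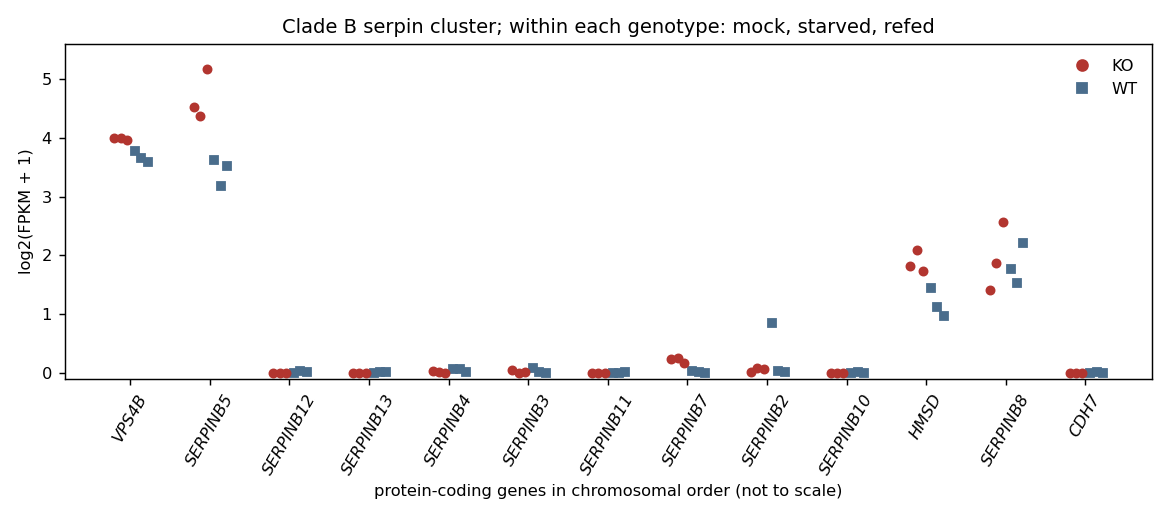
Log2 of (FPKM + 1) of the protein-coding genes in chromosomal order (not to scale) across the clade B serpin cluster, with KO as circles left of WT as squares and mock, starved and refed from left to right within each. SERPINB5 and SERPINB8, at the ends of the cluster, and HMSD are above 0.9 in every group, and the serpin genes between them are near 0 apart from SERPINB2 in WT mock.

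For each of the 6 genes the most alike profiles over the 6 groups were looked up among 12034 other genes, by the largest gap between log2 (FPKM + 1) profiles centred on their own means. The 6 points share libraries, so this is a description. PLAUR was nearest to DUSP4, a MAP kinase phosphatase (largest gap 0.22), AREG, the growth factor amphiregulin (0.24), and EPHA2, a receptor kinase (0.45). AREG was at 184, 95.4 and 578 FPKM in mock, starved and refed KO cells, against 98.6, 44.8 and 297 FPKM in WT. PLAU was nearest to PLK3, PPP1R15A and the AP-1 subunit gene JUNB, with largest gaps of 0.28, 0.34 and 0.34. PLAT had no close match: SAMD11, LBH and LSS, the sterol synthesis enzyme lanosterol synthase, had largest gaps of 0.42, 0.43 and 0.46. LSS was at 21.7, 49.0 and 50.6 FPKM in mock, starved and refed KO cells, against 11.7, 22.8 and 21.4 FPKM in WT. SERPINB5 had CDR2L and GRAMD3 among its 3 nearest (0.23 and 0.25), and SERPINB8 was nearest to SBDSP1, ZNF324 and PAK1IP1 (0.20, 0.21 and 0.21). SERPINE2 was nearest to DIRAS3, ZNF395 and PARM1 (0.06, 0.06 and 0.07), but 307 genes lay within 0.25 of it, where 2 did for PLAUR and 0 for PLAU and PLAT.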

How the data were processed

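Polyadenylated RNA of HCT116 cells was sequenced, per the labels' protocols. The submitters' processing notes name cutadapt, TopHat2 and the build hg19; versions, the program that computed FPKM and its annotation are not given in the sources used here. The authors deposited FPKM, 1 column for each of 6 groups; how the 2 labelled samples of a group entered it is not stated. Counts were not used here, so depth is unknown and no counting interval is given.

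Values were used as deposited. Ratios were log2 of (FPKM + 1), and 7 comparisons were made over the 13456 features that reached 1 FPKM in any group. With 1 value a group, no test was made, and differences of 2-fold or more were counted. Alternatives were a pseudocount of 0.1 FPKM, no filter, a filter of 5 FPKM, and median-ratio rescaling. The members, the 5 pathway lists and the 5 marker lists were chosen with earlier results of these data known, and the sequence motifs after the values were seen. From each pathway list, up to 4 genes were named by the largest ratio at 5 FPKM or more, with PLG, SERPINI1, ANXA2 and S100A10 always and some called genes added after their values were seen. For each measured member the genes of most alike profile were named, up to 3. Some listed genes are not reported here, and the list counts leave them out. Overlapping genes came from GENCODE 29, and gene order and promoters from RefSeq on GRCh38.p14, matched by symbol. Python 3.11.15, numpy 2.4.6, pandas 2.3.3 and matplotlib 3.10.9 were used.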

Additional observations from a re-analysis of the deposited data

Results flagged for a closer look

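SERPINB8 differed in direction between genotypes and between states. Starved against mock, its log2 ratio was 0.47 in KO and -0.24 in WT, a difference of 0.70 between the genotypes. The same 4 values give KO against WT as 0.34 in starved and -0.36 in mock cells, again 0.70 apart, and 0.36 in refed cells, which is 0.72 from mock. Each of these differences uses WT mock, the group with the high endothelial markers. After median-ratio rescaling the starved against mock ratios were 0.50 in KO and -0.09 in WT. KO against WT was then 0.18 in starved, -0.41 in mock and 0.13 in refed cells. SERPINB8 levels were 1.65 to 4.92 FPKM, and none of these differences was tested. PLAT also had opposite signs for refed against starved, -0.14 in KO and 0.01 in WT, a difference of -0.14 that was not tested and in which neither genotype was near 2-fold.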

How the results depend on the processing

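No paired analysis was possible because each group has 1 column that carries no replicate number, and for the same reason no replicate could be left out. Of the members' log2 ratios none reversed past 2-fold under the 4 alternatives: 159 of their values stayed within 1.5 times and on the same side of 2-fold, and 2 did not. A filter does not change a gene's own ratio, so only the pseudocount and the rescaling could move these values. The many unmoved values under the filter settings are therefore no sign of stability. With median-ratio rescaling SERPINB5 in starved cells, KO against WT, had log2 0.98, leaving 1 member past 2-fold against 2, and PLAUR in WT, starved against mock, had -0.94, leaving 0 against 1. With a pseudocount of 0.1 FPKM, features past 2-fold were 906 against 544 (KO against WT, starved), 1072 against 662 (refed), 1185 against 665 (starved against mock, WT) and 556 against 287 (KO). With a filter of 5 FPKM they were 458 against 738 (KO against WT, mock) and 443 against 665 (starved against mock, WT), with fewer features compared. Over the 5 pathway lists and 7 comparisons, rescaling moved 14 calls across 2-fold, turned none round, and left 26 of 35 sets of counts as they were. The share of higher calls moved with rescaling to 47.3% against 64.0% (KO against WT, starved), 52.7% against 69.3% (refed) and 34.8% against 20.9% (starved against mock, WT), and with the 5 FPKM filter to 52.8% against 41.3% (KO against WT, mock). Without the filter the counts were the same, since a 2-fold ratio of (FPKM + 1) needs 1 FPKM. The cause of the other moves was not tested. Without depth or replicates, the error of each value is unknown.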
